A study of Mus musculus with 10 samples.

Results

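The Krüppel-like factors described here are 10 members of a family of zinc finger transcription factors, Klf2, Klf3, Klf4, Klf6, Klf7, Klf9, Klf10, Klf13, Klf15 and Klf16, measured by RNA sequencing in sorted mouse lung endothelial cells. The members were chosen by gene symbol, and each of the 10 corresponded to 1 of the 55385 rows of the count table and was among the 17997 genes with enough counts to test. All animals were homozygous for a floxed allele of Tnfsf10, which encodes the death ligand TRAIL (Tnfsf10 L/L), in the strain Cdh5.iCreERT2xTnfsf10Lox/Lox, and were 8 to 14 weeks old. Controls were Cdh5.Cre W/W, without the transgene (n = 5 libraries). Animals of the group labelled EC-TRAIL KO were Cdh5.Cre Tg/W (n = 5), carrying a tamoxifen-inducible Cre under the endothelial Cdh5 promoter. Per the labels, tamoxifen was injected intraperitoneally at 1 mg per mouse and day for 5 or 10 days, and which duration each library had is not given. The transgene is present in every library of the group labelled EC-TRAIL KO and in no control, so Cre and the deletion cannot be told apart. The series' design text counts 5 control animals, as many as the control libraries, but 4 transgenic animals where the labels and the table hold 5 libraries. The sources do not say whether libraries stem from different mice, so that p-values cover the spread among these libraries, which may be technical.

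Krüppel-like factors share a C-terminal block of zinc fingers that binds GC-rich and CACCC-type DNA, and differ in the N-terminal part that recruits activators or repressors. In endothelium, Klf2 and Klf4 are best known as genes switched on by laminar blood flow through the kinases MEKK3, MEK5 and ERK5 and the MEF2 factors, and their products activate Nos3 and Thbd and restrain inflammatory adhesion molecules. Klf9 and Klf15 are known as early targets of the glucocorticoid receptor, Klf10 as a gene induced by TGF-beta, and Klf6 as a gene induced by vessel injury.

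The control libraries held 34435835 to 56897822 expected counts each, those labelled EC-TRAIL KO 29806083 to 34702571, and the lowest count of any member in any library was 258, for Klf15. Tnfsf10 was at 298 to 374 CPM, the expected count scaled to TMM-normalized library size, in controls and at 81.0 to 199 CPM in 4 of the libraries labelled EC-TRAIL KO. Replicate 2 of that group, at 318.0 CPM, lay within the control range. All 10 pan-endothelial markers (Cdh5, Pecam1, Kdr and others) were detected, with summed levels of 12695 to 14775 CPM in controls and 12807 to 14577 CPM among libraries labelled EC-TRAIL KO. Markers of other lung cells were also present, and no list had a marker at 0 counts in all libraries. The 11 alveolar epithelial markers summed to 8323 to 12484 and 6899.7 to 10053 CPM in the respective groups, and the 8 fibroblast markers to 725 to 957 and 582 to 1018 CPM. The 8 pericyte and smooth muscle markers summed to 463 to 619 and 347 to 590.3 CPM, 7 tested leukocyte markers (of 10) to 1267 to 1920.4 and 1072 to 1579 CPM, and 6 platelet and erythroid markers to 12.4 to 41.1 and 8.83 to 26.6 CPM. In such bulk samples, fewer cells of a type and less RNA per cell cannot be told apart.

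Klf4 and Klf2 were the most abundant members. To compare levels between genes, CPM was divided by the length of the merged exons in the GENCODE annotation. Klf4 had 433 ± 69.6 CPM per kilobase (SD, n = 10 libraries), above 99.7% of the tested genes, and Klf2 had 347 ± 95.6 CPM per kilobase, above 99.6%. Next came Klf9 with 74.7 ± 19.7, Klf6 with 73.0 ± 9.32, Klf7 with 57.8 ± 6.78, Klf13 with 45.1 ± 5.57 and Klf3 with 39.3 ± 7.66 CPM per kilobase. Klf10 had 14.98 ± 1.76, Klf16 10.3 ± 1.499 and Klf15 8.16 ± 4.23 CPM per kilobase. In this order Klf2 was separated from Klf9, Klf3 from Klf10, and Klf10 from Klf16, in that the ranges over 10 libraries did not overlap. The lowest Klf2 was 194 against a highest Klf9 of 94.7 CPM per kilobase, and the lowest Klf3 29.3 against a highest Klf10 of 18.3. Klf10 and Klf16 nearly met, at 13.05 and 13.03 CPM per kilobase. The other neighbours had overlapping ranges, although Klf4 was above Klf2, and Klf7 above Klf13, in all 10 libraries. Klf9 was above Klf6 in 6 of 10 libraries and Klf16 above Klf15 in 7 of 10. Merged exon length counts every annotated isoform, which affects genes with long annotated exons most. Klf3 had 11243 merged exon bases and Klf2 1847.

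None of the 10 members passed the test between the groups. With edgeR's quasi-likelihood test, 79 of the 17997 genes tested, 0.439%, passed at an adjusted p under 0.05, all 79 higher among libraries labelled EC-TRAIL KO. That total was not stable. It came to 1 gene whichever of the 5 controls was left out, to 1 without EC-TRAIL KO replicate 3 or 4, and to 160 without EC-TRAIL KO replicate 1. With all 10 libraries kept, it came to 1 with library size only or with genes of mean CPM of at least 1. It came to 2 with limma-voom and to 211 with DESeq2. Tnfsf10, which was below all controls in 4 of the libraries labelled EC-TRAIL KO, was not among the 79. For the members the edgeR adjusted p was 0.997 in each case, no member had an unadjusted p under 0.05, and 5.33% of all tested genes did. Without EC-TRAIL KO replicate 5, Klf10 had an unadjusted edgeR p of 0.0378 (adjusted 0.700, log2 fold change 0.20). DESeq2 and limma-voom called 0 members as well, with 0 at an unadjusted p under 0.05. The log2 fold changes (EC-TRAIL KO over control) ran from -0.09 for Klf9 to 0.19 for Klf16, with a median of 0.06 against -0.0091 over all tested genes, and 9 of 10 were above 0, against 8500 of 17997. In every member the ranges of the groups overlapped, while 1.38% of tested genes had no overlap with libraries labelled EC-TRAIL KO higher and 0.261% with them lower. Without replicate 2 of the group labelled EC-TRAIL KO, the library whose Tnfsf10 level was that of a control, the log2 fold changes ran from 0.0044 for Klf7 to 0.27 for Klf15, and 0 members passed (smallest edgeR adjusted p 1.00).

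**Figure D1:**
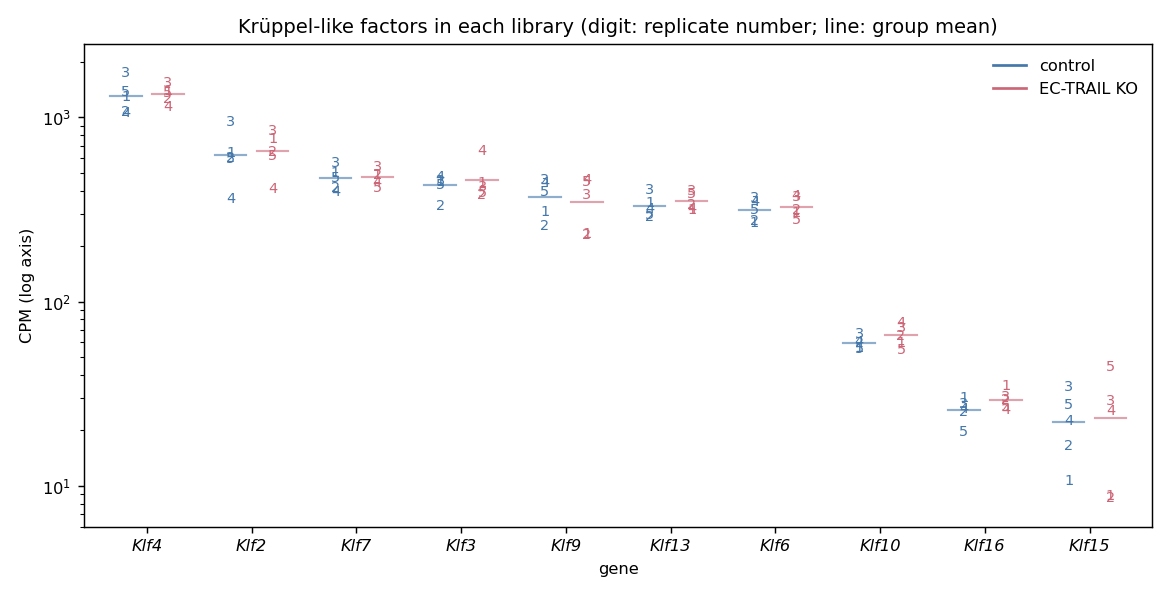
Level of each Krüppel-like factor in each library, in CPM on a log axis, with genes ordered by the control mean. Each digit is 1 library, named by its replicate number, blue for control and red for EC-TRAIL KO, and the line is the group mean (n = 5). The groups overlap in every gene, and Klf15 spans the widest range, from 8.56 to 44.3 CPM.

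Klf2, the flow-induced factor of quiescent endothelium (ENSMUSG00000055148, GRCm38 chromosome 8, 72319033 to 72321656, plus strand), had 641, 601, 940.0, 359 and 592 CPM in control replicates 1 to 5. Those labelled EC-TRAIL KO had 760.2, 651, 839.8, 411 and 614 CPM in replicates 1 to 5. Replicate 3 was the highest and replicate 4 the lowest in both groups, and the groups overlapped over most of their range. The means were 627 ± 207 and 655 ± 163 CPM (SD, n = 5 each), with 0.06 as the log2 fold change (SE 0.230). Its 95% interval corresponds to a fold between 0.739 and 1.48.

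Klf4, the partner of Klf2 in the flow response and also known as a factor used to reprogram cells to pluripotency (ENSMUSG00000003032, chromosome 4, 55527143 to 55532466, minus strand), had 1289, 1073, 1749, 1050.1 and 1378 CPM in control replicates 1 to 5. Those labelled EC-TRAIL KO had 1389, 1264, 1526, 1143 and 1352 CPM. As for Klf2, replicate 3 was highest and replicate 4 lowest in both groups, and all 5 libraries labelled EC-TRAIL KO lay within the control range. The means were 1308 ± 284 and 1335 ± 143 CPM, a log2 fold change of 0.03 (SE 0.140, fold interval 0.827 to 1.26).

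The sequences upstream of Klf2 and Klf4 are shown because these genes varied together between libraries. RefSeq promoter windows of GRCm38.p6 were found for 8 of the 10 members, and the 250 bases before the RefSeq start are printed 5′ to 3′ in the direction of the gene. Klf2 lies on the plus strand, with this window at chr8:72318812-72319061, and Klf4 on the minus strand, with its window at chr4:55532476-55532725. The last bases of the Klf2 window lie inside the GENCODE gene model, which begins upstream of the RefSeq start. Capitals mark CTANNNNTAG, a MEF2-type motif, and CACGTG, the E-box of clock and Myc-type factors, both searched on both strands.
Klf2: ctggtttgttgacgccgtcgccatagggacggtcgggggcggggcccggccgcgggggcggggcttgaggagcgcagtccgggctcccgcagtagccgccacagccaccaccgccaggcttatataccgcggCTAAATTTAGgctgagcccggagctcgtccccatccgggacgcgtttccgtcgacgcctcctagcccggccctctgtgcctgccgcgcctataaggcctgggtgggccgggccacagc
Klf4: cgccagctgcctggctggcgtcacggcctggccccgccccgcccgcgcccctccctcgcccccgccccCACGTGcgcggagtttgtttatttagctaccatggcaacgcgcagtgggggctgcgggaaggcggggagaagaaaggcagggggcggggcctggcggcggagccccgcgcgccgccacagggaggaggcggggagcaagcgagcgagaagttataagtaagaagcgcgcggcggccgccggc
Klf2 had 1 match to the MEF2-type motif, beginning 118 bases before the start, and was the single member among the 8 with a match. Over all 32851 promoter windows of this length, 3.20% held one. Klf4 had no match to it and 1 E-box, beginning 182 bases before the start; 6.02% of windows held an E-box. The looser pattern CCNCNCCC, of the kind that Krüppel-like factors bind, matched 4 times upstream of Klf2 and 9 times upstream of Klf4, and was present in 45.9% of all windows. Overlapping matches of this pattern were each counted, and a match describes letters, not binding.

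Klf9, a glucocorticoid-induced factor (ENSMUSG00000033863, chromosome 19, 23141226 to 23168134, plus strand), had 306, 258, 456, 441 and 394 CPM in control replicates 1 to 5, and 232, 229, 381, 454 and 447 CPM among libraries labelled EC-TRAIL KO. Replicates 1 and 2 were the lowest in each group, and replicates 3 to 5 were all higher. The means were 371 ± 86.2 and 349 ± 112 CPM (log2 fold change -0.09, SE 0.221, fold interval 0.674 to 1.31). Klf15, a regulator of amino acid and lipid metabolism that glucocorticoids induce (ENSMUSG00000030087, chromosome 6, 90462576 to 90475238, plus strand), had 10.7, 16.5, 34.6, 22.5 and 27.4 CPM in control replicates 1 to 5. Those labelled EC-TRAIL KO had 8.84, 8.56, 29.0, 25.4 and 44.3 CPM. Replicates 1 and 2 were again the lowest in both groups. The means were 22.3 ± 9.29 and 23.2 ± 15.1 CPM (log2 fold change 0.06, SE 0.432), and the fold interval of 0.544 to 1.998 is the widest among the members.

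Klf10, first described as a TGF-beta-inducible early gene (ENSMUSG00000037465, chromosome 15, 38291463 to 38300706, minus strand), had 56.0, 59.4, 66.4, 60.02 and 55.7 CPM in control replicates 1 to 5 and 59.9, 65.5, 72.1, 76.5 and 54.5 CPM among libraries labelled EC-TRAIL KO. Of the libraries labelled EC-TRAIL KO, 1 lay below all controls and 2 lay above all of them. The means were 59.5 ± 4.32 and 65.7 ± 8.88 CPM (log2 fold change 0.14, SE 0.0932, edgeR unadjusted p = 0.151, fold interval 0.959 to 1.27). Klf6, a factor of the vessel injury response (ENSMUSG00000000078, chromosome 13, 5861482 to 5870394, plus strand), had 267, 273, 367, 346 and 314 CPM in controls and 303, 314, 368, 373 and 279 CPM among libraries labelled EC-TRAIL KO. Its means were 314 ± 43.9 and 327 ± 41.4 CPM (log2 fold change 0.06, SE 0.110, fold interval 0.884 to 1.23).

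Klf3, Klf13 and Klf16 are known mainly as repressors, Klf3 through the corepressor CtBP and Klf13 and Klf16 through Sin3A. Klf16 (ENSMUSG00000035397, chromosome 10, 80567124 to 80577321, minus strand) had the largest log2 fold change among the members, 0.19 (SE 0.116, edgeR unadjusted p = 0.127, fold interval 0.958 to 1.36). Its controls had 29.95, 25.1, 27.97, 26.2 and 19.6 CPM, with replicate 5 the lowest, and those labelled EC-TRAIL KO had 34.8, 29.2, 30.4, 25.9 and 26.8 CPM. Of the libraries labelled EC-TRAIL KO, 2 lay above all controls. Klf3 (ENSMUSG00000029178, chromosome 5, 64803388 to 64832901, plus strand) had 447, 329.5, 453, 474 and 430.2 CPM in controls and 443, 379.5, 419.5, 656 and 389.5 CPM among libraries labelled EC-TRAIL KO. Replicate 4 was the highest in both groups, and in the group labelled EC-TRAIL KO it stood apart from the other 4 libraries. The log2 fold change was 0.10 (SE 0.1499) and turned to -0.07 without that library. Klf13 (ENSMUSG00000052040, chromosome 7, 63886351 to 63938915, minus strand) had 288 to 404 CPM in controls and 315 to 399 CPM among libraries labelled EC-TRAIL KO (log2 fold change 0.09, SE 0.105, fold interval 0.909 to 1.25).

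Klf7, a broadly expressed member known from neuronal and adipocyte differentiation (ENSMUSG00000025959, chromosome 1, 64029447 to 64122282, minus strand), had the log2 fold change nearest to 0, 0.01 (SE 0.106, fold interval 0.861 to 1.18), with 392 to 563 CPM in controls and 415 to 536 CPM among libraries labelled EC-TRAIL KO. Whether the authors' counting used strand is not stated, so reads of overlapping genes may be shared. The overlapping genes with counts were small beside the members, the largest being C230096K16Rik on the strand of Klf3, with 1.17% of the Klf3 count, and Gm20033 opposite Klf3, with 0.345%. The overlaps of Klf7, Klf9 and Klf13 reached at most 0.165% of the member, for Gm27252 opposite Klf13.

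**Figure D2:**
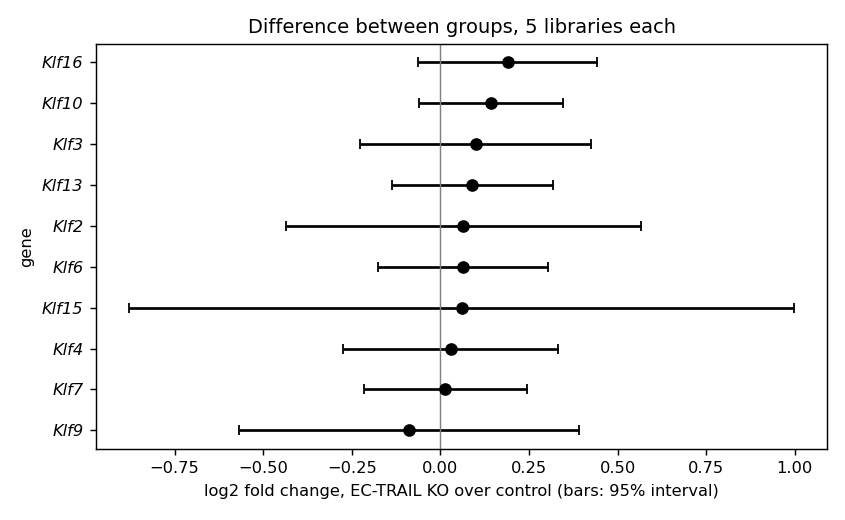
Log2 fold change of each Krüppel-like factor (x axis, EC-TRAIL KO over control, 5 libraries each), with its 95% interval from the edgeR fit as bars. Every interval includes 0, and the intervals are widest for Klf15 (-0.88 to 1.00), Klf2 (-0.44 to 0.56) and Klf9 (-0.57 to 0.39).

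The members differed in how much they varied between libraries of the same group. The within-group SD of log2 CPM was 0.89 for Klf15, larger than in 97.5% of tested genes, 0.45 for Klf2 (larger than in 81.3%) and 0.43 for Klf9 (larger than in 79.8%). For Klf3 it was 0.27, for Klf4 0.24, for Klf16 0.20 and for Klf6 0.19. Klf7 and Klf13, each with 0.18, and Klf10, with 0.16, varied least. Over all 10 libraries the highest level of Klf15 was 5.18 times the lowest, against 2.62 times for Klf2 and 1.40 to 1.99 times for the other 8. These shares compare genes of unlike abundance.

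**Figure D3:**
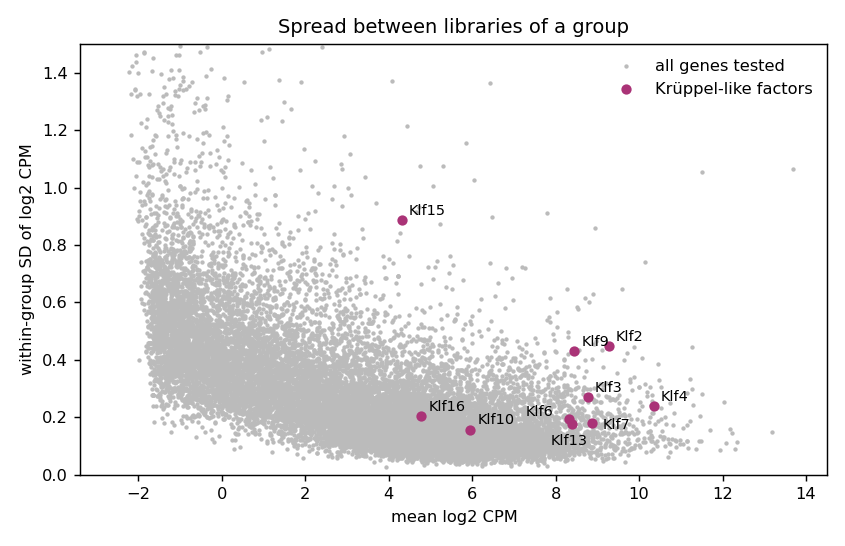
Within-group SD of log2 CPM (y axis, pooled over both groups) against mean log2 CPM (x axis) for all tested genes in grey and the Krüppel-like factors in purple; 137 genes lie above the plotted limit of 1.5. Klf15, Klf2 and Klf9 have the highest SDs among the members, 0.89, 0.45 and 0.43.

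Across the 10 libraries Klf2, Klf4 and Klf7 varied together. Correlations of log2 CPM were computed for the 45 pairs of members and for each member against the mean of 3 gene lists, 75 relations in all, with permutation tests of 100000 resamples and Benjamini-Hochberg adjustment over the 75. Klf2 and Klf4 had Pearson's r = 0.86 (permutation p = 0.00187, adjusted p = 0.0280) and Spearman's rho = 0.81 (permutation p = 0.00702, adjusted p = 0.105). Klf2 and Klf7 had r = 0.82 (permutation p = 0.00324, adjusted p = 0.0405) and rho = 0.85 (p = 0.00247, adjusted p = 0.105). Klf4 and Klf7 had r = 0.86 (permutation p = 0.00172, adjusted p = 0.0280) and rho = 0.78 (p = 0.0104, adjusted p = 0.112). Without the pair of libraries farthest from the median of the first gene, r was 0.83, 0.83 and 0.68 in that order. With group means removed r was 0.85, 0.82 and 0.86. Without the replicate 2 labelled EC-TRAIL KO, the relations of Klf2 with Klf4, Klf2 with Klf7 and Klf4 with Klf7 no longer passed (r = 0.86, 0.82 and 0.87, adjusted permutation p = 0.0523, 0.0641 and 0.0523). Over all 10 libraries these 3 relations passed with r and none of the 75 passed with rho (smallest adjusted p 0.105, 10 relations at an unadjusted p under 0.05). Values of this size were not particular to these members. Among 9257 other protein-coding genes, the 5 closest to Klf2 had r = 0.95 to 0.96 and the 5 closest to Klf4 had r = 0.90 to 0.97. The share of all genes with an r this high was not computed. Same-numbered libraries of the groups had similar levels of Klf2, Klf4 and Klf7, with replicate 3 highest in each group for all 3 and replicate 4 lowest for Klf2 and Klf4. The same number was highest in both groups for 6 of the 10 members and 31.6% of all tested genes. It was lowest in both groups for 5 of the 10 members and 34.3% of all tested genes. The 10 points may thus not be independent, and permutation p-values would then be too small.

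Klf6 and Klf10 had r = 0.80 (permutation p = 0.00626, adjusted p = 0.0671) and rho = 0.79 (p = 0.00885, adjusted p = 0.111) and did not pass. With group means removed r was 0.82 and the pair passed (adjusted permutation p = 0.0453). Its r was 0.73 without the libraries farthest from the median of Klf6. Klf2 had r = -0.76 with the mean of the circadian clock list (permutation p = 0.0101, adjusted p = 0.0949) and rho = -0.73 (p = 0.0198, adjusted p = 0.165), and r = -0.57 without both libraries numbered 4. These were the libraries with the lowest Klf2. In the same libraries the clock repressor gene Nr1d1 was at 108 CPM in the control and 107 CPM in the library labelled EC-TRAIL KO, and it ran from 9.28 to 103 CPM in the other 8. The 103 CPM was in EC-TRAIL KO replicate 5. That library had the highest clock list mean of all, 4.93, and Klf2 at 614 CPM, inside the range of the other libraries. The list mean pools 18 genes of unlike spread and does not measure clock phase. Over the 10 libraries Arntl ran from 41.5 to 57.2 CPM and Nr1d1 from 9.28 to 108 CPM. The immediate early list, whose genes respond within minutes to stress and growth factors, had r = 0.50 with Klf2 and 0.51 with Klf4 and passed with no member.

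**Figure D4:**
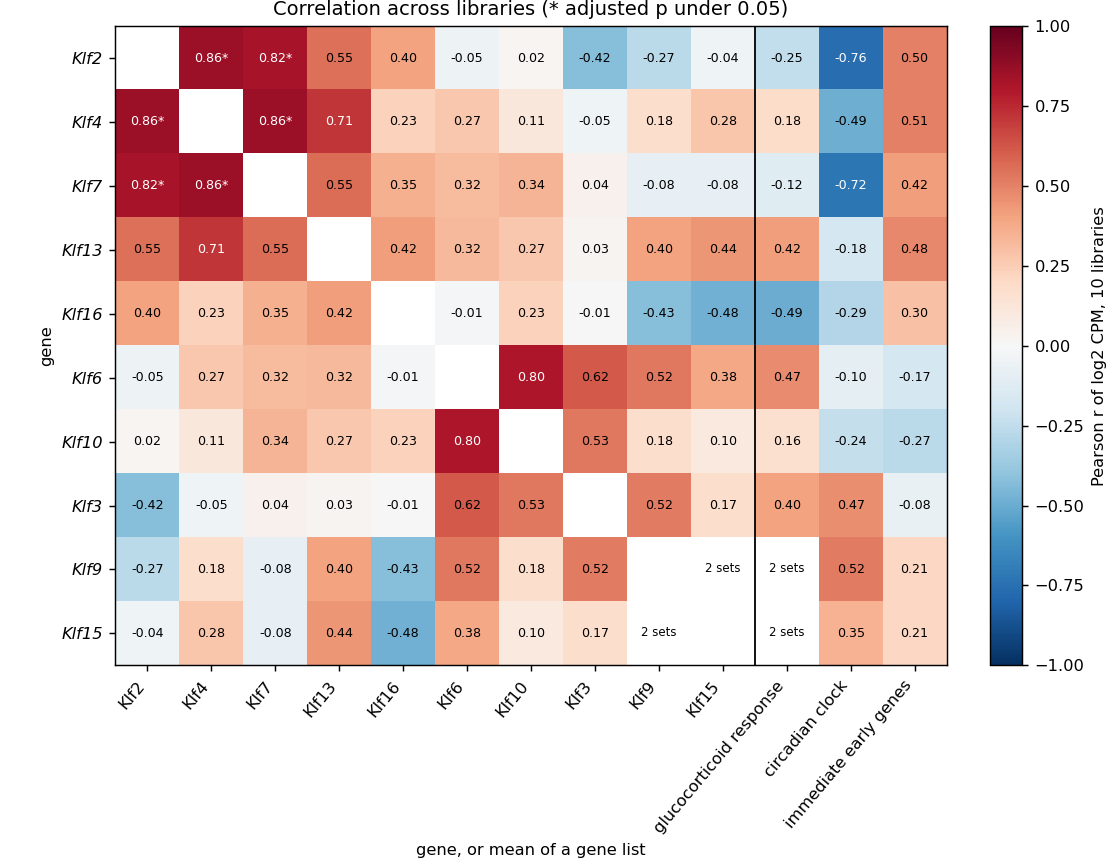
Pearson's r of log2 CPM across the 10 libraries between Krüppel-like factors (rows and columns) and, right of the line, between each factor and the mean of 3 gene lists; colour gives r and an asterisk an adjusted p under 0.05. Cells marked "2 sets" link measures for which the libraries fell into separate sets, so no pooled value is given. Klf2, Klf4 and Klf7 form the block of high values, 0.82 to 0.86.

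Klf9 and Klf15 differed between the libraries numbered 1 and 2 and those numbered 3 to 5, as did the mean of a glucocorticoid response list. The mean log2 CPM of the glucocorticoid response list (14 genes, among them Fkbp5, Tsc22d3 and Zbtb16, and without any Krüppel-like factor) was 5.40 to 5.76 in the 4 libraries numbered 1 and 2 of both groups and 6.30 to 6.66 in the 6 libraries numbered 3 to 5. Klf9 was at 229 to 306 CPM in those 4 libraries and 381 to 456 CPM in the other 6, and Klf15 at 8.56 to 16.5 and 22.5 to 44.3 CPM. Neither gene overlapped between these sets, while the other 8 members did. Over all tested genes, 1.76% were higher in all 6 libraries than in the other 4 and 2.06% lower. Of the 14 list genes, whose mean defined the sets, 5 did not overlap (Fkbp5, Errfi1, Pdk4, Mt1 and Mt2, all higher in the 6) and 9 did, Tsc22d3 and Zbtb16 among them. Because the libraries fell into separate sets, no pooled correlation is given among Klf9, Klf15 and the list mean. Within the 6 libraries, Klf9 and Klf15 had r = 0.20 (exact permutation p = 0.719) and rho = 0.20 (exact permutation p = 0.714). Against the list mean, Klf9 had r = 0.36 (exact permutation p = 0.546) and rho = 0.37 (p = 0.497), and Klf15 had r = 0.67 (exact permutation p = 0.15) and rho = 0.49 (p = 0.356), so no relation was detected inside that set. The set was cut on the list mean, which spans only 6.30 to 6.66 there. With 6 libraries and that narrow range, these tests cannot decide whether a relation exists. In the same 6 libraries Klf2 and Klf4 had r = 0.99 (exact permutation p = 0.00278, adjusted over 6 relations 0.0167) and rho = 0.94 (exact permutation p = 0.0167, adjusted 0.05). The 6 relations adjusted together were those that had passed over all 10 libraries, which include these 6. Their values inside the set are therefore no independent check. Klf2 with Klf7, at r = 0.88, and Klf4 with Klf7, at r = 0.89, had adjusted exact permutation p = 0.0583 each. The sets were defined from these levels and are not groups of the study, and the labels give no batch, date or time of collection for them.

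Fkbp5, a chaperone gene that the glucocorticoid receptor induces, is 1 of the 14 list genes whose mean defined the sets, so its separation is no independent support. It had 14.1, 9.499, 42.1, 25.0 and 49.8 CPM in control replicates 1 to 5 and 9.715, 22.9, 42.8, 34.0 and 81.1 CPM among libraries labelled EC-TRAIL KO. Its levels in libraries numbered 1 and 2 were all below those numbered 3 to 5. Tsc22d3, which encodes the glucocorticoid-induced leucine zipper protein, was highest in libraries numbered 3 and 5 (186 to 306 CPM) and at 84.7 to 132 CPM in the rest, libraries numbered 4 included. Zbtb16, a zinc finger gene that glucocorticoids induce, was at 154, 21.2, 90.1, 254 and 351 CPM in control replicates 1 to 5 and at 15.4, 134, 127, 204 and 356 CPM among libraries labelled EC-TRAIL KO, so the sets overlapped. None of the 60 relations between members and the markers of endothelial or other cells passed with r or with rho, and 8 had an unadjusted permutation p under 0.05 with r. Of these 8, 4 were with the leukocyte marker mean, for Klf6 (r = -0.67), Klf9 (-0.75), Klf13 (-0.76) and Klf15 (-0.76). Klf9 also had r = 0.70 with the pericyte and smooth muscle mean, Klf15 0.67 with the fibroblast mean and Klf16 0.67 with the pan-endothelial mean. The adjusted permutation p was 0.283 to 0.292 in all 8 (rho = -0.79 to 0.73, adjusted p = 0.250 to 0.407). Klf15 had r = -0.76 with the leukocyte marker mean and 0.66 with the pericyte and smooth muscle mean (permutation p = 0.0128 and 0.0349, adjusted p = 0.283 and 0.292; rho = -0.79 and 0.67, adjusted p = 0.250 and 0.292). Without the 2 libraries lowest in Klf15 r was -0.76 and 0.37. For Klf9, r without the same libraries was -0.76 with the leukocyte mean and 0.45 with the pericyte and smooth muscle mean. These values of Klf9 and Klf15 pool libraries numbered 1 and 2 with those numbered 3 to 5, between which both genes were separate. The part of those cells in the levels of Klf9 and Klf15 was not tested.

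**Figure D5:**
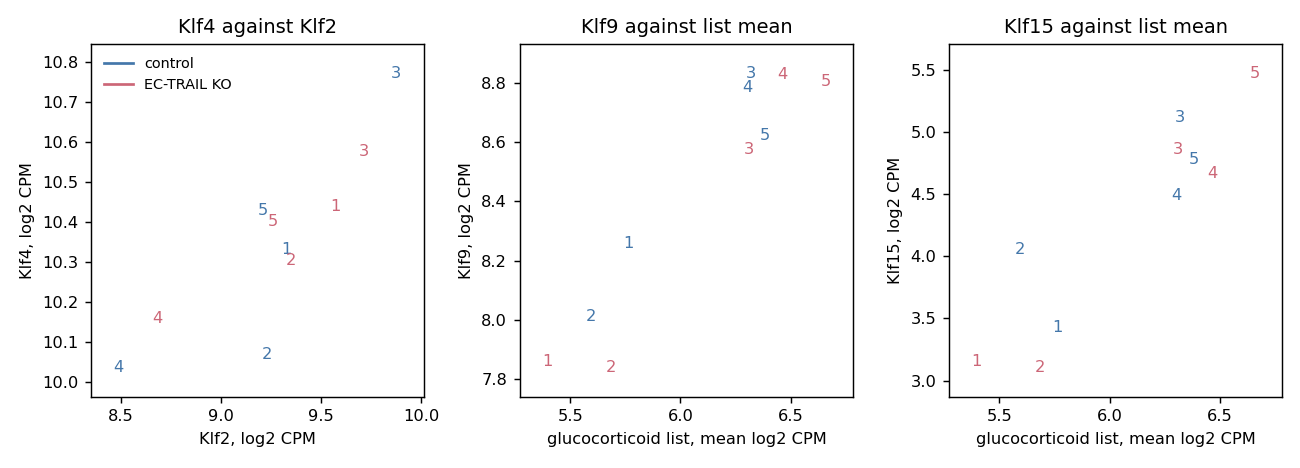
Log2 CPM of Klf4 against Klf2 (left), and of Klf9 (centre) and Klf15 (right) against the mean log2 CPM of the glucocorticoid response list, with each library drawn as its replicate number, blue for control and red for EC-TRAIL KO. In the centre and right panels libraries numbered 1 and 2 of both groups lie at the lower left, at list means of 5.40 to 5.76, apart from those numbered 3 to 5, at 6.30 to 6.66.

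The upstream sequences of Klf9 and Klf15 are shown because these genes separated the same libraries. The windows hold the 250 bases before the RefSeq start on the plus strand, chr19:23140976-23141225 for Klf9 and chr6:90462326-90462575 for Klf15, with the same motifs in capitals.
Klf9: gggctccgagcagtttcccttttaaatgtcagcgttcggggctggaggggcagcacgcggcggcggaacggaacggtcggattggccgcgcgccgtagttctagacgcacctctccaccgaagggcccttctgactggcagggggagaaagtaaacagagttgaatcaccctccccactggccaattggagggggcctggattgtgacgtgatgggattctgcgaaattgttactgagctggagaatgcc
Klf15: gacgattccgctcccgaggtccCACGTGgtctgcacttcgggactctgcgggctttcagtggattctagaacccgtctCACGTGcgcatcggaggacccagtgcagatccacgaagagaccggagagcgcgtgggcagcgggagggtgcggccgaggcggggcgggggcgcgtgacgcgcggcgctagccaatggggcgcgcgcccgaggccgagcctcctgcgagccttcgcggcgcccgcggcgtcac
Klf15 held 2 E-boxes, beginning 228 and 172 bases before the start, more than in the other 7 windows, and 3 matches to CCNCNCCC. Klf9 had no match to any of the 3 patterns. Klf4 and Klf6 held 1 E-box each, that of Klf6 beginning 43 bases before its start. Over all windows 6.02% held an E-box, and the share with 2 was not counted. No motif of the glucocorticoid receptor was searched for, so these matches do not bear on the separation of the libraries.

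Other genes of the wider family were not called either. Of 16 other Klf and Sp genes, 10 had enough counts to test and 0 passed in either direction (median log2 fold change -0.0254). Those with the smallest p were Sp4 at -0.18, Sp6 at -0.19, Klf5, an epithelial member, at -0.14, and Klf11 at 0.06. Klf1, the erythroid factor, had at most 14 counts in any library, Klf17 at most 2, and Klf14 and Sp8 had 0 in all, where a count of 0 allows up to 3 counts.

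Genes that act with Klf2 and Klf4 in the flow response were examined from lists drawn up with earlier results of these data known. Among 12 genes that Klf2 or Klf4 is known to raise in endothelium, 11 were tested and 0 passed, with a median log2 fold change of -0.0282 against -0.0091 over all genes. Nos3, the endothelial nitric oxide synthase, averaged 109 ± 6.30 CPM in controls and 130.5 ± 17.7 CPM among those labelled EC-TRAIL KO (SD, n = 5 each; log2 fold change 0.26, edgeR adjusted p = 0.591). Its controls had 118, 107, 101, 108 and 109 CPM and the libraries labelled EC-TRAIL KO 138, 149, 111, 113 and 142 CPM, with 3 of the latter above every control. Tek, the angiopoietin receptor Tie2, was at 1184 ± 103 and 1019 ± 71.9 CPM (log2 fold change -0.22, edgeR adjusted p = 0.810), so the pair with the smallest p in this list lay in opposite directions. Heg1, a junctional receptor of the cerebral cavernous malformation complex, had 0.16 and Timp3, a metalloproteinase inhibitor, 0.13.

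Among 10 genes known to be lowered by Klf2 or Klf4, all were tested and 0 passed (median log2 fold change 0.07). Adamts4, a matrix protease, had 0.30, Edn1, the vasoconstrictor endothelin, -0.38, and Sele, the endothelial selectin, 0.68, with edgeR adjusted p of at least 0.933. Of 18 genes of flow sensing and the MEKK3, ERK5 and MEF2 pathway, 0 passed and 15 had a log2 fold change above 0 (median 0.06). Over all tested genes 8500 of 17997 were above 0. Genes of a list can vary together between libraries, so such a count of signs is no test. Piezo1, a mechanosensitive ion channel, was at 403 ± 21.5 CPM in controls and 476 ± 40.9 CPM among libraries labelled EC-TRAIL KO (log2 fold change 0.24, edgeR adjusted p = 0.426). Map3k2, a kinase upstream of ERK5, had -0.15, Ccm2, which holds MEKK3 in check, 0.24, and Rasip1, a Rap1 effector, 0.11.

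The lists of upstream signals likewise held no gene that passed with edgeR. Of 18 immediate early genes, 14 were below 0 (median log2 fold change -0.15), with Fos at -0.20, Egr1 at -0.28, Egr2 at -0.29 and Myc at 0.30. This count of signs, beside 8500 of 17997 tested genes above 0, is likewise no test. Fos had 1313 ± 133 CPM in controls and 1141 ± 163 CPM among libraries labelled EC-TRAIL KO, and Egr1 3237 ± 446 and 2658 ± 605 CPM (SD, n = 5 each). Of the 14 glucocorticoid response genes, Nr3c1, the receptor itself, had -0.12, Lcn2 0.17, Tgm2 0.20 and Fkbp5 0.45 (median 0.03). Of 18 circadian clock genes the median was 0.09, with Bhlhe40 at 0.25, Per2 at 0.25 and Arntl, which encodes BMAL1, at -0.0998. Of the TGF-beta response list, 13 of 14 names were found and tested (median -0.06), with Pmepa1, a feedback inhibitor of the pathway, at 0.22 (28.4 ± 1.33 and 33.1 ± 1.29 CPM, edgeR adjusted p = 0.289). The same list had Id2 at -0.25, Bambi at -0.23 and Ccn2 at 0.18. DESeq2 called Pmepa1 (log2 fold change 0.22, adjusted p = 0.0451), and it was the single gene of these 8 lists called by any of the tools or settings run.

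The genes whose levels followed Klf2 and Klf4 most closely were found among 9257 other protein-coding genes with a mean of at least 10 CPM. For Klf2 the 5 highest Pearson correlations over the 10 libraries were with Mtrr (r = 0.96), Nfya (0.96), Zfp672 (0.96), Ubfd1 (0.96) and Mtf1 (0.95). For Klf4 they were with Ube2f (0.97), Ahctf1 (0.94), Ints6 (0.90), Zfp655 (0.90) and Slc35f5 (0.90). With so many genes and 10 libraries that share normalization, values of this size are a description of these libraries, and no gene appeared in both lists.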

How the data were processed

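RNA sequencing of sorted lung endothelial cells gave 1 table of 10 libraries, each matched by its column title to a sample. The submitters' processing notes list GRCm38, STAR 2.7.1a and RSEM 1.2.28. They state no role or settings for these, and annotation release, read filters and use of strand are not stated. The authors deposited expected counts per gene, without normalization. Symbols, positions and exon lengths came from GENCODE M21 (GRCm38), which matched 55144 of 55385 identifiers by the ID without its version.

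Expected counts were rounded and tested with edgeR 4.0.16 under R 4.3.3 (filterByExpr with its minimum count of 10, TMM, quasi-likelihood F-test without the legacy estimation, group as the only term), adjusted by Benjamini-Hochberg over 17997 genes, threshold 0.05. The median log2 fold change of all genes was -0.0091. SE is the fold change divided by the square root of F, and 95% intervals use its t quantile. Log2 CPM used a prior count of 2. Any pair of libraries differed by a chi-square of at least 20.1 per degree of freedom, so none was a repeat deposit. limma 3.58.1 and DESeq2 1.42.0 served as alternatives, with scaling, filter, block, covariate and left-out libraries. Intervals and floors cover counting and library spread only.

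The members and lists were chosen with earlier results of these data known. Named genes are all 10 members, Tnfsf10, the genes of each list that passed and, up to 4, those with the smallest p, and the 5 genes most correlated with Klf2 and with Klf4. Some genes that this rule selects are not reported here. Nr1d1, Tsc22d3, Zbtb16 and the untested family members were named after their values were seen, and the split by the glucocorticoid list and the marker correlations were added after seeing the data.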

Additional observations from a re-analysis of the deposited data

Results flagged for a closer look

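Klf3 was at 656 CPM in replicate 4 of the libraries labelled EC-TRAIL KO, against 379.5 to 443 CPM in the other 4, a gap of 0.771 of the group's range. It was the single high or low library to stand apart in this way among the 20 sets of 5 libraries examined (10 members in each group), where chance alone flags about 1 in 20. The same replicate number was also the highest for Klf3 among controls, at 474 CPM. Over all tested genes, 31.6% had the same number highest in both groups.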

How the results depend on the processing

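No member passed in any of the 21 alternatives, and 4 members (Klf6, Klf10, Klf13 and Klf16) kept a log2 fold change above 0 in all of them. The total of genes called was 79 and came to 1 with library size only, with genes of mean CPM at or above 1, with the marker mean as covariate and without both libraries numbered 4, to 2 with limma-voom with or without quality weights, to 135 without a low-count filter and to 211 with DESeq2. Leaving out single libraries gave 1 to 160 calls. It came to 1 without any 1 of the controls, and without replicate 3 or 4 labelled EC-TRAIL KO. With the replicate number as a block 172 genes and 0 members passed (smallest edgeR adjusted p 0.450, Klf16, the single member with an unadjusted p under 0.05 in that fit, 0.0272); same-numbered libraries correlated at r = 0.07 to 0.43 in deviations from the group means, with number 2 the lowest, and 4 of 5 numbers had their best match in the other group under the same number, a hint from the data only, so the libraries were treated as sharing only a number. The block lowered the SE of Klf2 from 0.230 to 0.0741 and turned Klf15 to -0.087.

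Signs near 0 turned as follows, with the cause not tested. With the marker covariate Klf2 was at -0.12, Klf4 at -0.083, Klf7 at -0.068 and Klf9 at 0.0052. Over single left-out libraries Klf2 ran from -0.082 to 0.26, Klf3 from -0.065 to 0.16, Klf4 from -0.040 to 0.15, Klf7 from -0.044 to 0.086, Klf9 from -0.20 to 0.030 and Klf15 from -0.31 to 0.27. Klf7 was at -0.00095 without a filter, Klf15 at -0.093 with limma-voom, and Klf3 at -0.023 and Klf7 at -0.020 without both libraries numbered 4. Of the 75 correlations 6 passed, 3 of them between the measures that split the libraries, 2 passed when EC-TRAIL KO replicate 2 was left out, 8 with library size only and 7 with group means removed. Members had at least 258 counts in every library, the lowest for Klf15, and what depth adds to their spread was not tested.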
